A study of Mus musculus with 10 samples.

Results

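Ptgs1 and Ptgs2 are the 2 prostaglandin G/H synthases (cyclooxygenases) of the mouse, and they were looked for as every probe set whose platform annotation gives 1 gene symbol equal to either name. One of the 2 genes was found. Ptgs2 (Entrez gene 19225) was measured by 1 probe set, 104647_at, among 12422 ordinary probe sets that name 8251 genes. No probe set carries the symbol Ptgs1 in the annotation used here, so its level was not analysed here. All values below are therefore those of Ptgs2, and no level or ratio of the constitutive against the inducible synthase is given.

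The cells were primary mouse embryonic fibroblasts taken at embryonic age e14.5, of a C57/BLACK6 background with the genotype ATF1 +/-, which every group shared. Near-confluent cultures were held for 48 h in medium with 1% dialyzed fetal bovine serum. Serum-treated cultures then had 10% serum for 2 h, and starved cultures had 1% serum for the same time. The 10 arrays fall into 6 groups by RNA pool and serum state. Polyribosome RNA, taken from sucrose gradient fractions with 2 or more ribosomes per mRNA, had 2 serum-treated and 2 starved arrays. Undertranslated RNA, from fractions lighter than these (free mRNA, mRNA with a ribosomal subunit, or with 1 ribosome), also had 2 serum-treated and 2 starved arrays. Cytoplasmic RNA had 1 serum-treated and 1 starved array. Gradient cultures received 100 ug/ml cycloheximide, which freezes ribosomes on mRNA, for 30 min, and cytoplasmic cultures did not. An effect of the drug and a difference between gradient and cytoplasmic RNA cannot be told apart. In every gradient group, replicate 2 was made from cells given 200 uM 4-thiouridine and 1 uCi of 3H-cytidine, and replicate 1 from cells without them. Per the labels, matching fractions from several biological and technical repeats were combined for each array. The spread behind each p-value is that of such combined samples and may be technical in part. Arrays of 1 number from both gradient pools may also share their cultures. No probe set is named for Atf1 here, so the genotype was not checked on the arrays.

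Prostaglandin synthesis begins when a phospholipase A2 frees arachidonate from membrane lipids. Ptgs1 and Ptgs2 then oxidize and reduce it to prostaglandin H, which terminal synthases turn into prostaglandin E, prostacyclin, prostaglandin D and F or thromboxane, the ligands of a family of membrane receptors. Ptgs1 is made in most tissues at a steady level. Ptgs2 is an immediate early gene, switched on in fibroblasts by serum and growth factors, and its mRNA carries AU-rich elements in its 3′ UTR that bind proteins controlling its decay and translation.

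In GRCm38.p6, Ptgs2 lies on chromosome 1 from 150100031 to 150108234, and Ptgs1 on chromosome 2 from 36216742 to 36258593. The Ptgs2 promoter is shown because serum induction of the gene is known to act through sites close to its start. The RefSeq window chr1:150099781-150100080 on the plus strand holds 250 bases before the annotated start and 50 after it, and capitals mark the motif matches described below.
Ptgs2 promoter: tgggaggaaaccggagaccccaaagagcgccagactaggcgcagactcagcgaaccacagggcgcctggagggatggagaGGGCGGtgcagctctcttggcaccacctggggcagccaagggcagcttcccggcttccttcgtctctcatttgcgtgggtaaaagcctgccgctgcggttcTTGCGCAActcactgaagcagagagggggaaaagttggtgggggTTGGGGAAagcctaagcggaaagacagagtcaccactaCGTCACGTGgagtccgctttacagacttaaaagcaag
Positions are counted from the annotated start as base 1, with negative numbers before it. That start was not checked against a mapped start of transcription, so positions and missing motifs hold for this window only. A GC box (GGGCGG), the Sp1 motif, lies at -170 to -165, and 35.7% of the 32851 promoter windows of 27025 genes in the table hold this motif on either strand. The C/EBP pattern TTNNGNAA, the motif of Cebpb and its relatives, was matched at -69 to -62 on both strands and at -25 to -18 on the plus strand. It is common, with a match in 40.7% of windows. The core of the cAMP response element, TGACG, which CREB and ATF factors bind, was matched on the minus strand at 14 to 18, as in 20.8% of windows. It overlaps an E box (CACGTG), the motif of the Usf factors, at 17 to 22, which 7.15% of windows hold. The full cAMP response element TGACGTCA (1.79% of windows), the TATA box TATAAA (13.6%), the AP-1 motif TGANTCA (7.81%) and CCAAT (37.4%) had no match in these letters. Both strands were searched for every motif, and a match describes the sequence only.

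Ptgs2 was bright in polyribosome RNA, intermediate in cytoplasmic RNA and dim in undertranslated RNA. Its deposited intensity, in linear units, was 2547.2 and 2232.2 in serum-treated polyribosome RNA, against 1874.3 and 1146 in starved polyribosome RNA. Both serum-treated arrays lay above both starved arrays. In cytoplasmic RNA the intensity was 379.9 in serum-treated cells and 281.3 in starved cells. In undertranslated RNA it was 20.3 and 44.2 in serum-treated cells, against 39.3 and 43.7 in starved cells, so these groups overlapped. Ptgs2 was above background on all 10 arrays, background being an array's highest value among 19 control probe sets of bacteria and yeast, by 2.86-fold to 203-fold. The arrays themselves differed in the same order. The median over ordinary probe sets was 45.3 to 54.25 in polyribosome RNA, 19.1 to 19.2 in cytoplasmic RNA and 5.7 to 8.8 in undertranslated RNA. Arrays were therefore brought to 1 common distribution (quantile normalization) on the log2 scale before any comparison, and the other ways of scaling are given where they change a value much. In bulk RNA, fewer cells and less RNA per cell cannot be told apart.

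After normalization the log2 level of Ptgs2 was 9.30 and 9.28 in serum-treated polyribosome RNA, against 8.61 and 8.29 in starved polyribosome RNA. It was 8.27 in serum-treated and 7.66 in starved cytoplasmic RNA. It was 7.19 and 7.66 in serum-treated undertranslated RNA, against 7.30 and 7.13 in starved undertranslated RNA. From highest to lowest the group means ran 9.29 ± 0.011 (serum-treated polyribosome), 8.45 ± 0.23 (starved polyribosome), 8.27 (serum-treated cytoplasmic), 7.66 (starved cytoplasmic), 7.42 ± 0.33 (serum-treated undertranslated) and 7.21 ± 0.12 (starved undertranslated), with SD over 2 arrays where an error is given. Several neighbours in this order did not differ beyond their spread. The gap of 0.18 between starved polyribosome and serum-treated cytoplasmic RNA was under the SD of the starved polyribosome group. The gap of 0.24 from starved cytoplasmic to serum-treated undertranslated RNA and that of 0.21 between the undertranslated groups were under the SD of serum-treated undertranslated RNA. The gap of 0.84 between the polyribosome groups exceeded both of their SDs.

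**Figure D1:**
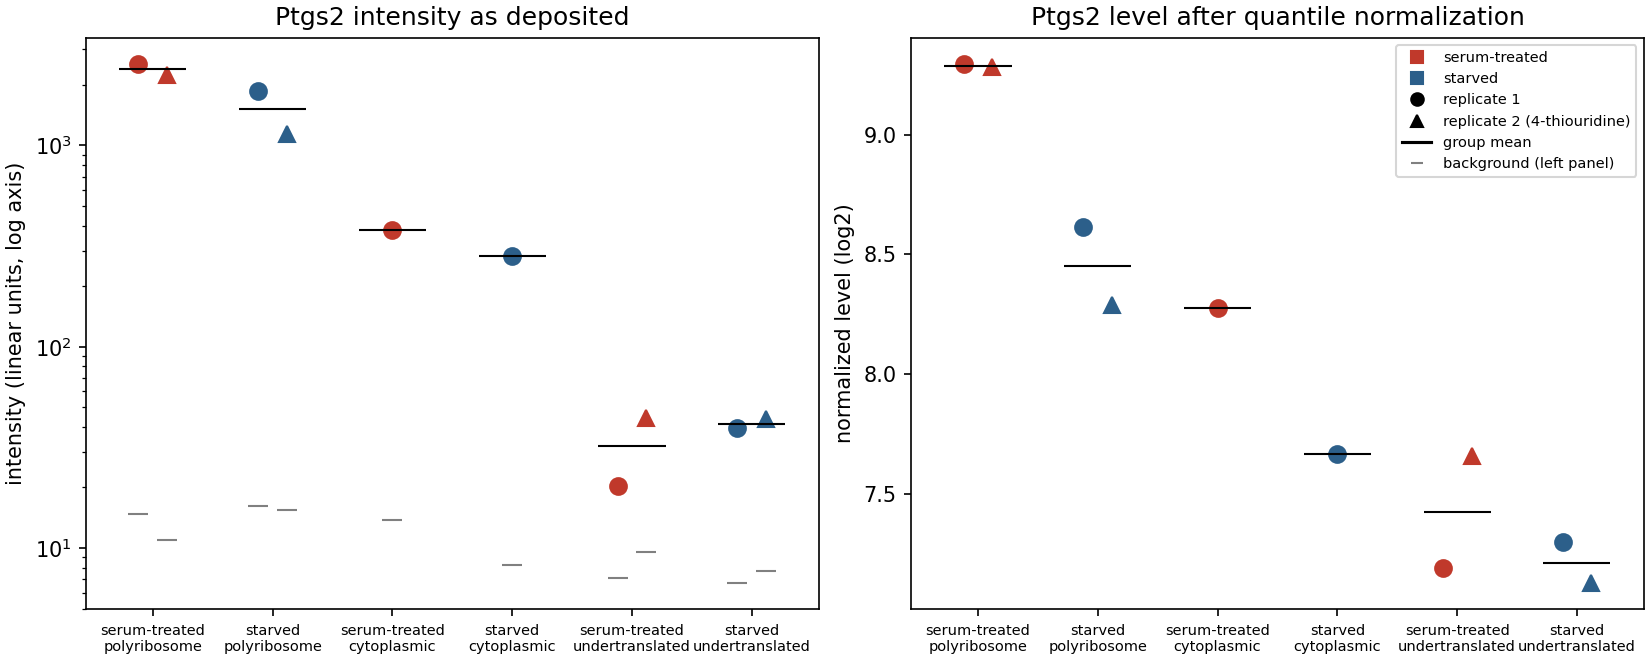
Ptgs2 on each of the 10 arrays, as deposited intensity on a log axis (left) and as normalized log2 level (right), with circles for replicate 1, triangles for the 4-thiouridine-labelled replicate 2, black lines for group means and grey ticks for each array's background. Polyribosome arrays lie highest, from 1146 to 2547.2 in intensity, and the serum-treated and starved undertranslated arrays overlap.

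The first comparison was between polyribosome and undertranslated RNA. With the arrays brought to 1 distribution, it asks where Ptgs2 stood relative to the other mRNAs of each fraction. It does not give the share of Ptgs2 mRNA on either side of the gradient. Ptgs2 was higher in polyribosome RNA on every array. Averaged over the serum states the normalized log2 difference, polyribosome minus undertranslated, was 1.55 ± 0.19 (SE, 8 arrays), or 2.93-fold, with a 95% interval of 1.12 to 1.98 and a limma adjusted p of 0.000289. Among all 9316 probe sets tested, 28.7% were called higher and 25.5% lower in polyribosome RNA, and 81.6% had a lower difference than Ptgs2. The Ptgs2 difference thus lay in the upper part of a broad distribution rather than apart from it.

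The difference was seen in both serum states. In serum-treated cells the log2 difference was 1.87 ± 0.27 (SE), or 3.64-fold, with an adjusted p of 0.00122 in limma, where 23.5% of probe sets were called higher. The same-numbered arrays differed by 2.11 and 1.62. In starved cells it was 1.24 ± 0.27 (SE), or 2.36-fold, with an adjusted p of 0.011, where 14.6% were called higher, and the same-numbered arrays differed by 1.32 and 1.16. The starved call was lost without either starved undertranslated array or without starved polyribosome replicate 1, at log2 differences of 1.32, 1.15 and 1.08 and adjusted p of 0.0521, 0.0589 and 0.0849. The serum-treated difference exceeded the starved one by 0.63 ± 0.38 (SE), with a 95% interval of -0.23 to 1.48. This difference of differences did not pass (adjusted p = 0.714), and 0% of probe sets passed in this limma contrast, with 720 at an unadjusted p under 0.05. Without serum-treated undertranslated replicate 2, 902 passed, and Ptgs2 had 0.86 (adjusted p = 0.124). Its value was 1.15 on deposited values and 1.02 after median centring, also without passing.

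The size of the polyribosome difference depended on the scaling, while its direction did not. On the deposited scale the polyribosome arrays exceeded the undertranslated arrays of the same state and number by 125-fold and 50.5-fold in serum-treated cells, against 47.7-fold and 26.2-fold in starved cells. In log2 units the averaged difference was 5.67 on deposited values, 3.20 after median centring and 5.98 after scaling to 9 hybridization control probe sets. The median probe set moved too, by 3.02 on deposited values, 0.55 after median centring and 3.33 after control scaling, against 0.046 after quantile normalization. Relative to that median Ptgs2 was 1.51 higher in the normalized values and 2.65 higher in the 3 other scalings. Those 3 differ only by 1 constant per array, so they give the same value by arithmetic and count once. The share of called probe sets that were higher in polyribosome RNA moved with it, at 52.9% in the normalized values, 99.6% on deposited values, 66.8% after median centring and 99.7% after control scaling. The ratio of the 3′ to the 5′ Actb control probe sets, a sign of RNA or labelling quality, was 11.5 to 21.1 in polyribosome RNA and 23.6 to 137 in undertranslated RNA. The same ratio for the Gapdh control probe sets ran the other way, at 6.11 to 20.9 in polyribosome RNA and 3.70 to 6.81 in undertranslated RNA. The part of RNA quality in these differences was not tested.

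Against cytoplasmic RNA, Ptgs2 was again higher in polyribosome RNA, by 0.90 ± 0.18 in log2 units (SE, 6 arrays), or 1.87-fold. The 95% interval was 0.48 to 1.32 and the limma adjusted p 0.00784. In this comparison 14.49% of probe sets were called higher and 11.9% lower, and 89.0% had a lower difference than Ptgs2. The call rests on the 2 cytoplasmic arrays. It was lost without the serum-treated one, at 0.79 with an adjusted p of 0.146, and without the starved one, at 1.01 with an adjusted p of 0.0517. Ptgs2 lay 0.90 above the median probe set after quantile normalization and 1.20 above it under the other scalings, again 1 value by arithmetic. Of the called probe sets 54.8% were higher in polyribosome RNA after quantile normalization, 98.8% on deposited values, 66.2% after median centring and 39.3% after control scaling. The 3′ to 5′ ratio on the starved and serum-treated cytoplasmic arrays was 16.6 and 11.9 for Actb, and 47.0 and 28.4 for Gapdh. The Gapdh ratio was 6.11 to 20.9 in polyribosome RNA. The part of RNA quality in comparisons that use the cytoplasmic arrays was not tested. Undertranslated RNA was set against cytoplasmic RNA in the same way, and Ptgs2 differed by -0.65 ± 0.29 (SE), with a 95% interval of -1.32 to 0.014. This did not pass (adjusted p = 0.124), where 15.7% of probe sets were called lower. It did pass in the other scalings, at -3.16 on deposited values, -1.95 after median centring and -5.05 after control scaling.

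**Figure D2:**
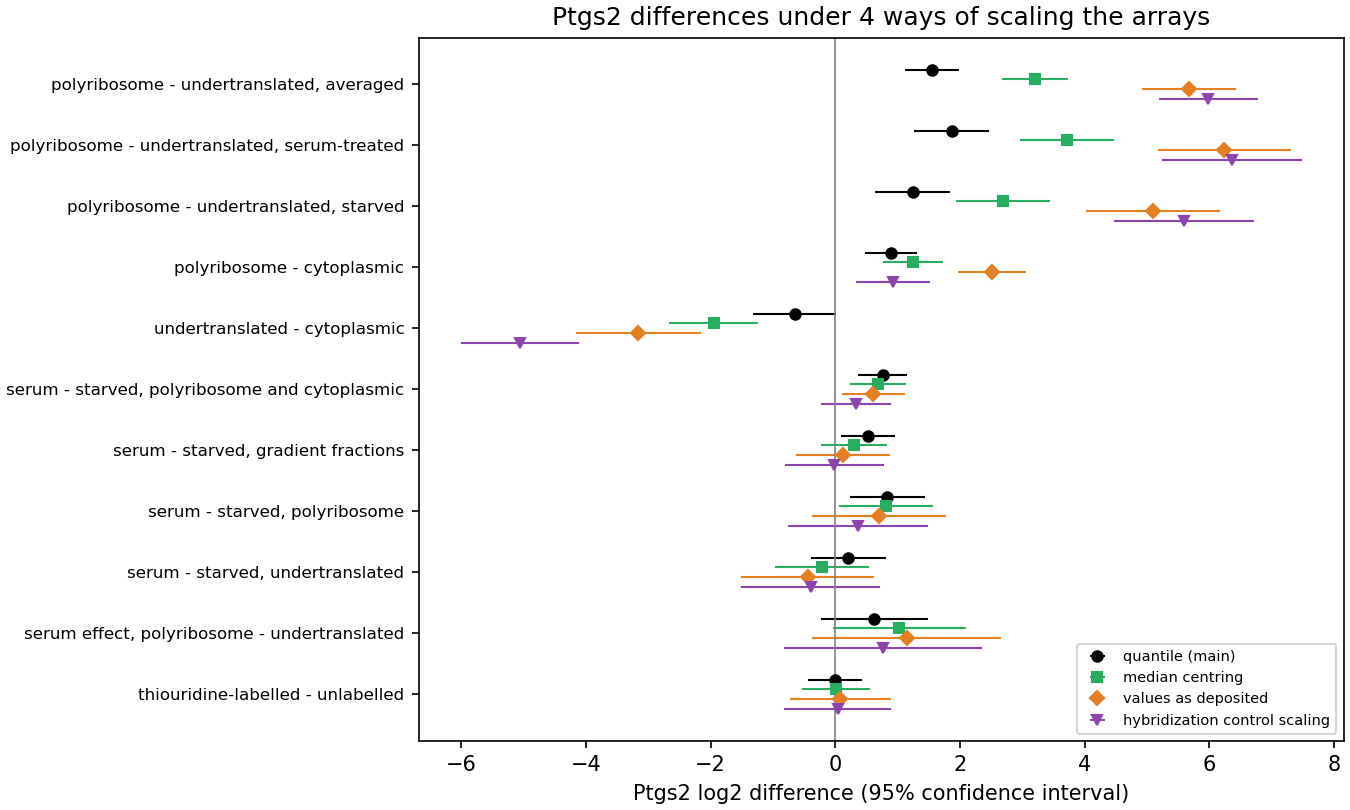
Log2 differences of Ptgs2 in 11 comparisons under 4 ways of scaling the arrays, each point with its 95% confidence interval from limma and the group named first over the group named second. The polyribosome differences lie above 0 in all 4 scalings, and the one against undertranslated RNA averaged over the serum states spans 1.55 to 5.98, and the serum difference over gradient fractions lies between -0.017 and 0.52.

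The serum response was asked in each pool. In polyribosome RNA the log2 difference of Ptgs2, serum-treated minus starved, was 0.68 between the arrays of replicate 1 and 0.99 between those of replicate 2. The corresponding intensity ratios were 1.36 and 1.95. The cytoplasmic pair differed by 0.61, with an intensity ratio of 1.35, and has no replicate and no test. In all 3 of these pairs the serum-treated array was the higher one. In undertranslated RNA replicate 1 differed by -0.11 and replicate 2 by 0.53, so the pairs did not share a direction.

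No serum contrast of Ptgs2 passed the test across all probe sets. Over polyribosome and cytoplasmic RNA together the difference was 0.76 ± 0.17 (SE, 6 arrays), or 1.70-fold, with a 95% interval of 0.37 to 1.15. The unadjusted p was 0.00175 and the limma adjusted p 0.111. Here 0.666% of probe sets were called higher and 0.225% lower in serum-treated cells, and Ptgs2 ranked 295 from the highest difference, above 96.8% of the probe sets. Within polyribosome RNA alone the difference was 0.84 ± 0.27 (SE), with a 95% interval of 0.23 to 1.44, an unadjusted p of 0.0125 and an adjusted p of 1. It was 0.36 with control scaling (95% interval -0.76 to 1.48) and 0.70 on deposited values (-0.37 to 1.77), so both of those intervals include 0. The normalized difference lay above 97.6% of probe sets. In that limma contrast 0% of probe sets passed, with 161 at an unadjusted p under 0.05. Averaged over both gradient fractions it was 0.52 ± 0.19 (SE), with an unadjusted p of 0.0221 and an adjusted p of 0.339. That value was 0.13 on deposited values, 0.30 after median centring and -0.017 with control scaling. In limma 0% passed there, with 1073 at an unadjusted p under 0.05, and 1243 probe sets passed without serum-treated undertranslated replicate 2. In undertranslated RNA it was 0.21 ± 0.27 (SE), with a 95% interval of -0.39 to 0.82 and an adjusted p of 0.676, where 1.07% of probe sets passed in either direction, but 0 in 6 of the 8 fits with an array left out (both starved undertranslated arrays and all 4 polyribosome arrays in turn). Its sign turned under every other scaling, to -0.44, -0.22 and -0.40 on deposited, median-centred and control-scaled values.

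Labelling with 4-thiouridine could have altered the cultures of replicate 2. The difference of Ptgs2 between replicate 2 and replicate 1 was -0.0099 ± 0.19 (SE, 8 arrays), with a 95% interval of -0.45 to 0.43 and a limma adjusted p of 0.989. In that contrast 0% of probe sets passed, with 602 at an unadjusted p under 0.05.

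The labelled cell type was checked on marker genes. Of 15 fibroblast markers 14 were measured, and all 14 were above background on every array. In limma 0 of the 14 were called with serum over polyribosome and cytoplasmic RNA, with 2 at an unadjusted p under 0.05. Macrophages also make Ptgs2, and 18 macrophage markers were measured. Their mean log2 level was 5.04 to 5.36 in serum-treated and 4.12 to 4.18 in starved polyribosome RNA, with 15 to 16 against 14 markers above background. It was 4.58 in serum-treated and 3.86 in starved cytoplasmic RNA, with 12 above background in both. In undertranslated RNA it was 4.41 to 4.47 in serum-treated and 3.63 to 3.72 in starved cells, with 8 to 9 against 7 to 8 above background. Of the 14 macrophage markers tested, 6 rose with serum over polyribosome and cytoplasmic RNA (Lyz2, Ctss, Tyrobp, Laptm5, Cd14 and C1qc), by 1.09 to 1.73 in log2 units, where 0.666% of all probe sets rose, against 2 with control scaling. Marker lists were also chosen with earlier results of these data known, so this share is not independent of them. The markers Itgam and Aif1 were not above background on any array. Endothelial markers averaged 3.50 to 3.62 in serum-treated and 2.94 to 3.30 in starved polyribosome RNA, 3.51 and 2.75 in serum-treated and starved cytoplasmic RNA, and 3.94 to 4.08 and 2.96 to 3.05 in serum-treated and starved undertranslated RNA. Of 6 tested over polyribosome and cytoplasmic RNA, 1 rose, where 0.666% of all probe sets did, and 0 rose with control scaling. It was Flt1, at least 2.64-fold higher (adjusted p = 0.0282). A second, slightly dimmer Flt1 probe set differed by 0.20 (adjusted p = 0.806). Epithelial markers averaged 3.20 to 3.37 and 2.66 to 2.68 in serum-treated and starved polyribosome RNA, 3.52 and 2.87 in serum-treated and starved cytoplasmic RNA, and 3.51 to 4.09 and 2.99 to 3.07 in serum-treated and starved undertranslated RNA. The part of other cell types in the Ptgs2 values was not tested.

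The enzymes that supply Ptgs2 with its substrate were taken next. Of 12 measured genes for arachidonate release 10 were tested, and limma called 0 in either direction with serum over polyribosome and cytoplasmic RNA, with 0 at an unadjusted p under 0.05. Their median log2 difference was -0.02, against -0.0092 over all probe sets. Pla2g4a, the cytosolic phospholipase A2 that supplies arachidonate to cyclooxygenases, differed by 0.05 ± 0.23 (SE, adjusted p = 0.958 in limma). Between polyribosome and undertranslated RNA 3 of the 10 were higher and 3 lower, close to the 28.7% and 25.5% of all probe sets. Pla2g12a, a secreted phospholipase A2, was higher by 0.98 ± 0.14 (SE, adjusted p = 0.000718), on a probe set whose suffix f marks probes shared by several transcripts. The secreted phospholipases Pla2g1b and Pla2g10 were lower by -3.42 and -2.74 after quantile normalization, but higher by 0.31 and 0.38 on deposited values. For Pla2g4a the difference was 0.66 ± 0.28 (SE), which did not pass (adjusted p = 0.0723).

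Among the terminal synthases downstream of Ptgs2, all 7 measured genes were tested. In limma 0 were called with serum, with 1 at an unadjusted p under 0.05 and a median of 0.043. Ptges, the microsomal prostaglandin E synthase usually induced along with Ptgs2, differed by -0.06 ± 0.17 (SE, adjusted p = 0.929). Ptgis, the prostacyclin synthase, differed by 0.62 ± 0.20 (SE), which did not pass (adjusted p = 0.275). Between polyribosome and undertranslated RNA 3 were higher and 2 lower, against 28.7% and 25.5% of all probe sets. Ptgis was higher by 2.02 ± 0.35 (SE, adjusted p = 0.00175), and was above background on 1 of 4 undertranslated arrays. Ptges differed by 0.42 ± 0.26 (SE, adjusted p = 0.199). Ptgds and Tbxas1, the prostaglandin D and thromboxane synthases, were lower by -2.14 and -2.03 after quantile normalization and higher by 1.77 and 1.29 on deposited values. Of the other 2 Ptgds probe sets, 1 differed by -2.08 (adjusted p = 0.00288) and 1 by 0.44 (adjusted p = 0.297).

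Among 12 measured prostanoid receptors 8 were tested, and limma called 0 with serum over polyribosome and cytoplasmic RNA, with 2 at an unadjusted p under 0.05 and a median of 0.054. Ptger4, a receptor for prostaglandin E, differed by -1.02 ± 0.30 (SE, adjusted p = 0.212). It was higher in polyribosome than in cytoplasmic RNA by 1.40 (adjusted p = 0.0119), as was Ptgfr, the prostaglandin F receptor, by 1.36 (adjusted p = 0.00457). A second Ptgfr probe set differed by -0.38 between polyribosome and undertranslated RNA (adjusted p = 0.622), where the brighter one was higher by 1.17 (adjusted p = 0.0236) and above background on 2 of 4 undertranslated arrays. Of the genes for transport and breakdown of prostanoids 3 of 6 listed were tested. All 3 were higher in polyribosome than in undertranslated RNA, where 28.7% of all probe sets were. All 3 were also higher in polyribosome than in cytoplasmic RNA, where 14.49% of all probe sets were. With control scaling 2 of them were higher than in cytoplasmic RNA, against 766 of all 9316 probe sets. With serum limma called 0 of these 3 genes, with 0 at an unadjusted p under 0.05. Ptgr1, a prostaglandin reductase, was higher than in undertranslated RNA by 3.38 ± 0.30 (SE, adjusted p = 8.26e-05), and was above background on 2 of 4 arrays there, so the size is uncertain. Hpgd, which inactivates prostaglandin E, was at least 1.71-fold higher in polyribosome than in cytoplasmic RNA (adjusted p = 0.0068), where it was not above background, and with serum it differed by -0.59 ± 0.41 (SE, adjusted p = 0.635). Of 6 tested genes of the lipoxygenase branch, the other route of arachidonate, limma called 0 with serum, with 0 at an unadjusted p under 0.05. In polyribosome against undertranslated RNA 1 was higher and 1 lower, where 28.7% and 25.5% of all probe sets were.

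Transcription factors known to act on the Ptgs2 promoter were tested for 26 genes, and 2 rose with serum over polyribosome and cytoplasmic RNA. Among all probe sets 0.666% rose. With control scaling 0 of the 26 rose, against 19 of all 9316. Cebpb rose by 1.37 ± 0.23 (SE, adjusted p = 0.0312), and its motif family is matched in the promoter shown above, as in 40.7% of windows. Fosl1, an AP-1 subunit, rose by 1.25 ± 0.20 (SE, adjusted p = 0.0292), and the AP-1 motif had no match there. A link of these motifs to the serum response was not tested. The list's median was 0.20. In polyribosome against cytoplasmic RNA 1 of the 26 was higher and 7 lower (14.49% and 11.9% of all probe sets), among them Cebpb at -2.86 and Fosl1 at -1.77, while Ptgs2 was higher at 0.90. On deposited values, where the median probe set lay 1.31 higher in polyribosome RNA, 18 of the factors were called higher and 1 lower. Among all 9316 probe sets 7066 were called higher and 87 lower there, so higher calls were the rule on that scale.

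Of 12 tested RNA-binding proteins known to act on the Ptgs2 mRNA, limma called 0 with serum, with 2 at an unadjusted p under 0.05 and a median of -0.11. Zfp36 (tristetraprolin), which hastens decay of mRNAs with AU-rich elements, differed by 0.37 ± 0.27 (SE, adjusted p = 0.652). Elavl1 (HuR), which stabilizes such mRNAs, differed by -0.11 ± 0.20 (SE, adjusted p = 0.883). Zfp36 was lower in polyribosome than in cytoplasmic RNA by -2.91 (adjusted p = 0.000604) and differed by -0.29 from undertranslated RNA (adjusted p = 0.341), a value that turned positive under the other scalings. Elavl1 was higher in polyribosome than in undertranslated RNA by 2.57 (adjusted p = 0.0103), where it was above background on 3 of 4 arrays, and differed by -0.18 from cytoplasmic RNA (adjusted p = 0.59). Of the 12, 6 were higher and 1 lower in polyribosome than in undertranslated RNA, where 28.7% of all probe sets were higher and 25.5% lower.

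Other early genes induced by serum or growth factors were set beside Ptgs2. Of 15 tested, 7 rose with serum over polyribosome and cytoplasmic RNA and 0 fell, where 0.666% of all probe sets rose and 0.225% fell. The list was chosen with earlier results of these data known, so its share is not independent of them. With control scaling 3 of the 15 rose, against 19 of all 9316 probe sets. The median of the 15 was 0.80 after quantile normalization, and Ptgs2 had 0.76. Cebpb and Fosl1 are in this list too. The largest differences were those of Vegfa (1.90 ± 0.29, adjusted p = 0.0228), an angiogenic factor above background on 1 of 3 starved arrays, and Plaur (1.73 ± 0.25, adjusted p = 0.0191), the urokinase receptor. Hbegf, an EGF receptor ligand, rose by 1.61 ± 0.19 (SE, adjusted p = 0.00937), and Gadd45b, a stress-inducible gene, by 1.42 ± 0.20 (SE, adjusted p = 0.019). The 8 others did not pass, with Cxcl1 at -0.72, Ccl7 at -0.27, Ccl2 at 0.097 and Dusp1 at 0.12. Among them Ier3, Il6, Myc and Odc1 had 0.33 to 0.80. Fos, Jun, Egr1 and Fosb stood in the list of transcription factors instead, at -0.21, -0.64, -0.045 and 0.67, and did not pass. Without 1 of the 6 arrays this contrast called between 5 and 118 probe sets, against 83 with all of them. In polyribosome against cytoplasmic RNA 7 of the 15 were lower and 0 higher (11.9% and 14.49% of all probe sets), with a median of -0.39, whereas Ptgs2 was higher. On deposited values 11 of the 15 were called higher and 1 lower, where 7066 of all 9316 probe sets were called higher and 87 lower. Ptgs2 had 2.51 there against a list median of 1.01.

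**Figure D3:**
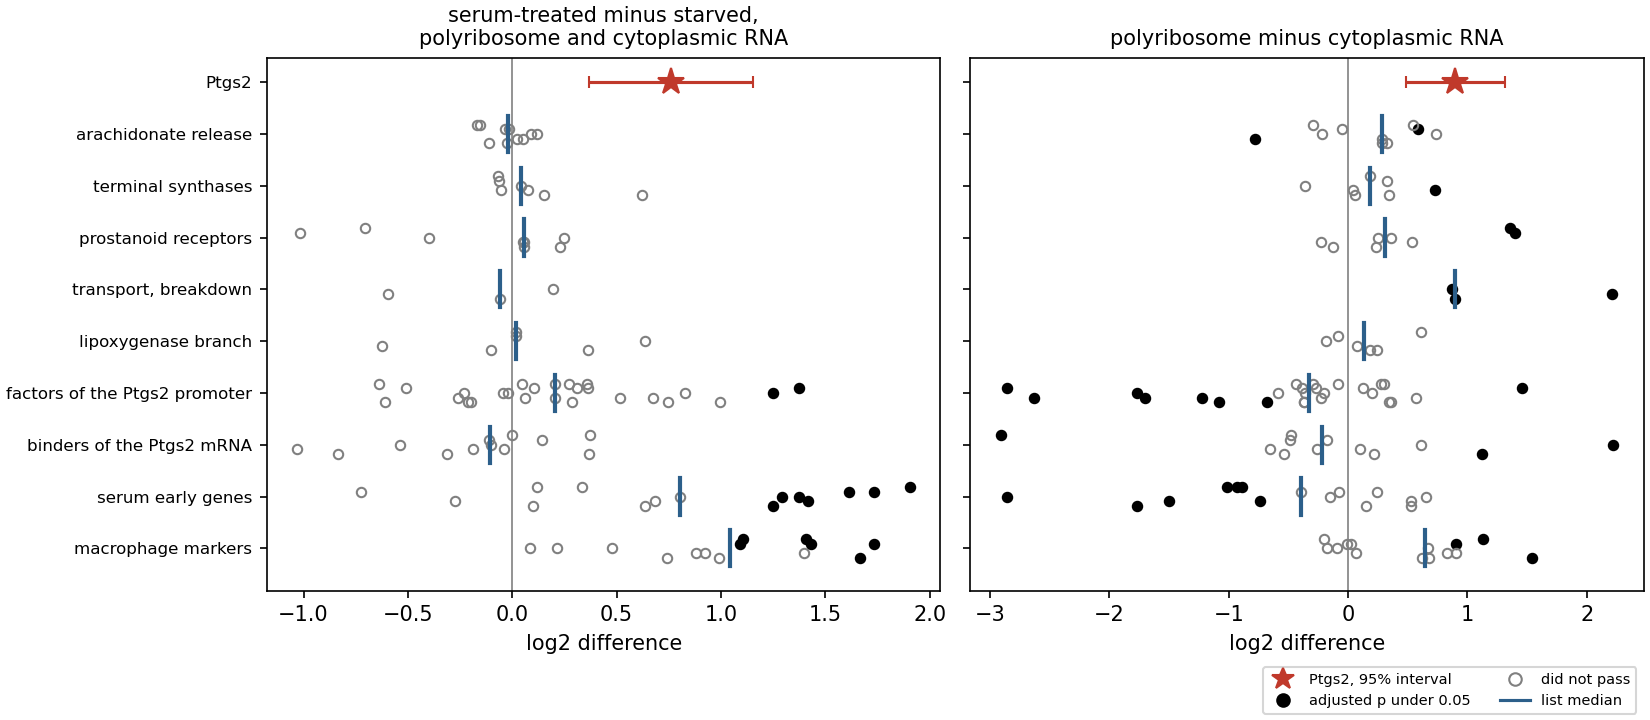
Log2 differences of Ptgs2 (star, with its 95% interval) and of every tested gene of 8 lists and of the macrophage markers, serum-treated minus starved over polyribosome and cytoplasmic RNA (left) and polyribosome minus cytoplasmic RNA (right). Filled points passed the limma test and blue lines are list medians. On the left 7 early genes and 6 macrophage markers passed, and Ptgs2 at 0.76 did not. On the right Ptgs2 lies at 0.90 and the median of the early genes at -0.39.

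The genes whose pattern was most like that of Ptgs2 were ranked by Pearson r over the 10 arrays among 8274 probe sets. By normalized log2 level they were Lrrfip1 (r = 0.944), Acsl4 (0.944), Pus1 (0.933), Igfbp7 (0.931) and Top1 (0.930). Lrrfip1 and Top1 were above background on all 10 arrays, Acsl4 on 7, and Pus1 and Igfbp7 on 6. Acsl4 is an acyl-CoA synthetase that prefers arachidonate, and it differed by 0.86 with serum over polyribosome and cytoplasmic RNA, which did not pass (adjusted p = 0.0874). After each pool's mean was taken off, the most alike were Gp1bb (0.947), Fgl2 (0.941), Ell2 (0.941), Spsb1 (0.940) and Rgs16 (0.917). Of these Fgl2 rose with serum by 2.05 ± 0.21 (SE, adjusted p = 0.00641), Spsb1 by 1.34 (adjusted p = 0.0191) and Rgs16, a regulator of G-protein signalling, by 1.06 (adjusted p = 0.0451). Ell2 at 0.69 (adjusted p = 0.201) and Gp1bb at 0.64 (adjusted p = 0.294) did not pass. All were picked for likeness to Ptgs2 on the same arrays, so their serum differences are not independent of that choice. Gp1bb was above background on 6 of the 10 arrays, Fgl2 on 7, and Ell2, Spsb1 and Rgs16 on all 10. These correlations describe 10 arrays that share pools and scaling, and carry no p.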

How the data were processed

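Per the labels' protocols, amplified and biotin-labelled RNA was measured on Affymetrix arrays. The authors deposited linear intensity values for each probe set of each array. How probes were summarised or scaled is not given in the sources used here. Of 12488 probe sets 66 controls were left out. Of the other 12422, 10833 have 1 symbol in the platform annotation, which can be old, 396 several and 1193 none. Values were taken as log2(value + 1.5), the 10th percentile of all values, which understates changes of dim genes, and quantile normalized because array medians spanned 2.95 log2 units. Only probe sets with a mean level over the 25th percentile were tested, which kept 9316 with Ptgs2 among them. The 8 gradient arrays were fitted in limma 3.58.1 under R 4.3.3 (4 residual degrees of freedom), or 6 arrays for comparisons with cytoplasmic RNA (3), with lmFit and eBayes with a trend. Every p is two-sided, with Benjamini-Hochberg adjustment at 0.05 over all 9316, and 11 contrasts of Ptgs2 were computed. Where list genes had more than 1 probe set, the brightest on average was used. The rule names list members that passed, at most 4 each way, and 8 genes in any case (Pla2g4a, Ptges, Ptgis, Ptger4, Hpgd, Cebpb, Zfp36 and Elavl1); the text prints a part of them, chosen after values were seen. A fold written "at least" sets the brighter mean against the detection floor of the other side, in the normalized values. Promoters are RefSeq sequences of GRCm38.p6. The fits were tested on simulated data. Members and lists were chosen with earlier results of these data known, so a list's share of calls is not independent of them. Depth has no counterpart here, and the number of arrays limits the precision. Alternatives were the deposited scale, median centring, pseudocounts of 1 and 4.2, no filter or the 50th percentile, no variance trend, all 10 arrays, 1 pool alone, the replicate block and each array left out, and, chosen after seeing the data, scaling to 9 hybridization controls.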

Additional observations from a re-analysis of the deposited data

How the results depend on the processing

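Of 199 alternative values of Ptgs2, 177 kept their direction and, where tested, their side of the threshold. The untested cytoplasmic pair has 5 of these values, counted as kept if the shift was under the pooled SD of 0.21, which 4 met. Contrasts in which Ptgs2 passed neither time also count among the 177. Its polyribosome excess over undertranslated RNA ranged from 1.43 to 5.98 with adjusted p up to 0.0026. In starved cells, leaving out 1 array gave 1.08 to 1.40, with the call lost for 3 arrays. Against cytoplasmic RNA the call was lost in the fit of all 10 arrays (0.90, adjusted p = 0.0748) and without either cytoplasmic array, with 0.79 to 1.01 over arrays left out, and the cause was not tested. Undertranslated against cytoplasmic RNA passed on deposited values (-3.16), median centring (-1.95) and control scaling (-5.05). The serum difference over polyribosome and cytoplasmic RNA stayed above 0, from 0.33 to 0.84, with adjusted p of 0.0522 (with the replicate block) to 0.874. Over the gradient it was -0.017 with control scaling, and the cytoplasmic pair was 0.27 there. In undertranslated RNA it was -0.44 on deposited values, -0.22 after median centring and -0.40 with control scaling, and -0.023 to 0.45 over arrays left out, the lowest without serum-treated replicate 2. The labelling difference was 0.079, 0.0077 and 0.036 in those scalings and -0.17 to 0.094 over arrays left out. With the replicate block the serum difference over the gradient was 0.52 (adjusted p = 0.334), and no call of Ptgs2 changed. Same-numbered arrays deviated together at r = 0.275 between the polyribosome groups and 0.0171 to 0.0535 elsewhere, so the numbers share a labelling treatment and are not shown to pair the arrays. With the block Ptger4 passed with serum (-1.02, adjusted p = 0.037). For Pla2g4a the serum difference was -0.085, -0.016 and -0.37 on deposited, median-centred and control-scaled values and -0.18 to 0.30 over arrays left out, which gave -0.11 to 0.0047 for Ptges, -1.04 to 0.051 for Hpgd and -0.26 to 0.11 for Elavl1. Between polyribosome and undertranslated RNA, deposited values and control scaling turned Pla2g1b (0.31 and 0.62), Pla2g10 (0.38 and 0.69), Ptgds (1.77 and 2.08) and Tbxas1 (1.29 and 1.60), and with median centring between them Ptger4 (3.13, 0.67 and 3.45) and Zfp36 (3.93, 1.46 and 4.24). Calls over all probe sets moved too. For serum over polyribosome and cytoplasmic RNA they numbered 83, with 0 to 149 in other settings. Over the gradient they numbered 0, with up to 34 in other settings and 1243 without serum-treated undertranslated replicate 2, which also gave 902 in place of 0 for the change of the fraction difference with serum. Serum in undertranslated RNA called 100, with 0 to 140, and up to 2302 with an array left out. Polyribosome against undertranslated RNA called 5052, with 3825 to 8886, and against cytoplasmic RNA 2463, with 424 to 7153. Undertranslated against cytoplasmic RNA called 2806, with 2237 to 9021 and down to 462 with an array left out. Signal over background limits the undertranslated values most, where Ptgs2 was as low as 2.86-fold over background.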
